A study of Mus musculus with 32 samples.

Results

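The genes described here carry Wnt signals between cells or set how strongly those signals are received. They were taken from the gene tables of a study of mouse ovarian carcinoma by their symbols alone: every Wnt ligand, Frizzled receptor, R-spondin, secreted Frizzled-related protein (Sfrp) and Dickkopf protein (Dkk) named in numbered form, together with Lrp5, Lrp6, Lgr4, Lgr5, Lgr6, Znrf3, Rnf43, Axin2, Notum and Wif1. The rule found 51 of the 55450 genes: 19 Wnt ligands, 10 Frizzled receptors, 2 Lrp co-receptors, 4 R-spondins, 3 Lgr receptors, 2 ubiquitin ligases, 4 Sfrp and 4 Dkk genes, and 3 other modulators. The study sequenced total RNA of 26 tumours and 6 normal tissues to compare carcinomas started at different sites.

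All 26 tumours came from female mice with Brca1 fl/fl and a K18GT121 Tg/+ transgene, through which Rb proteins are inhibited once Cre has acted. In the OSE-BPR model, adeno-Cre was placed under the ovarian bursa of Trp53 fl/fl mice of strain FVB, so that tumours start from the ovarian surface epithelium. In Ad-BPR mice, also Trp53 fl/fl but of strain C57Bl/6, adeno-Cre went into the oviduct. Pax8-BPR mice (C57Bl/6, Trp53 fl/fl) carried Pax8-CreERT2 Tg/+ and Ovgp1-BPR mice (C57Bl/6) Ovgp1-CreERT2 Tg/+, Cre drivers of oviductal secretory cells that tamoxifen switched on. For Ovgp1-BPR the sample labels give Trp53 KozR172H ki/+, whereas the series text names both the R172H mutation and Trp53 fl/fl, so the mutant allele goes with this model and its effect cannot be told apart from that of the Cre driver. Each model was sampled as tumours of the genetically engineered mice themselves (GEMM; 3 OSE-BPR, 2 Ad-BPR, 4 Pax8-BPR and 3 Ovgp1-BPR) and as allografts (5, 4, 2 and 3). Tumours were taken at endpoint; ages, the GEMM tumour behind each allograft and the allograft hosts are not given in the sources used here. Normal ovary and normal oviduct came from the same 3 wild-type C57Bl/6 females. Strain FVB occurs only in OSE-BPR tumours, so strain and ovarian origin cannot be told apart, and comparing OSE-BPR tumours with normal ovary also compares strains.

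As background, Wnt ligands are lipid-modified secreted proteins that bind a Frizzled receptor and, in the canonical branch, an Lrp5 or Lrp6 co-receptor, which stabilizes beta-catenin and lets it act with TCF/LEF factors on target genes. Znrf3 and Rnf43 are membrane ubiquitin ligases that remove Frizzled receptors from the cell surface. R-spondins, bound to Lgr receptors, draw these ligases away and so keep receptors in place. Sfrp proteins and Wif1 bind Wnt ligands outside the cell, Dkk proteins other than Dkk3 bind Lrp5 and Lrp6, and Notum removes the lipid from Wnt ligands. Axin2, Notum, Rnf43, Znrf3 and Lgr5 are themselves known targets of canonical signalling. In the female tract, Wnt4 and Rspo1 act in ovary formation, Wnt7a patterns the oviduct and uterus, and Lgr5 marks cells of the ovarian surface epithelium.

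Every count below is an RSEM expected count, rounded to whole numbers, and levels are given as CPM, counts scaled to a common library total, with sizes adjusted by edgeR's TMM factors over the 32 libraries. Library totals ran from 13.99 to 20.51 M counts, with a median of 17.43 M, so genes under about 1 CPM rest on few counts. Fold changes are log2 values ± standard error, with adjusted p-values from edgeR's quasi-likelihood test with Benjamini-Hochberg adjustment over all genes tested, and a gene is said to have changed at an adjusted p under 0.05. Where several models form 1 side, each model weighs equally on the log scale, so a fold change need not equal the ratio of mean CPM. Of the 51 genes, 43 passed the filter on low counts in the fits with tumours and 40 in the fit of the 6 normal tissues. The 8 left out of every fit were Wnt3, Wnt3a, Wnt8a, Wnt8b, Wnt9b, Rspo4, Dkk1 and Dkk4. None of these exceeded 4.79 CPM in any library, and 4 of them (Wnt9b, Rspo4, Dkk1 and Dkk4) were highest in 1 and the same tumour, Pax8-BPR GEMM replicate 2. The share of all genes that were highest in that tumour was not computed. Fzd9, Wnt1 and Wif1 were left out of the normal-tissue fit alone. The sources used here do not say whether counting used strand, and 16 of the 51 genes overlap a gene on the other strand, among them Axin2, Lgr5, Rspo1, Wnt6, Wnt7b and Notum, so reads of the partner cannot be told apart from theirs.

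**Figure D1:**
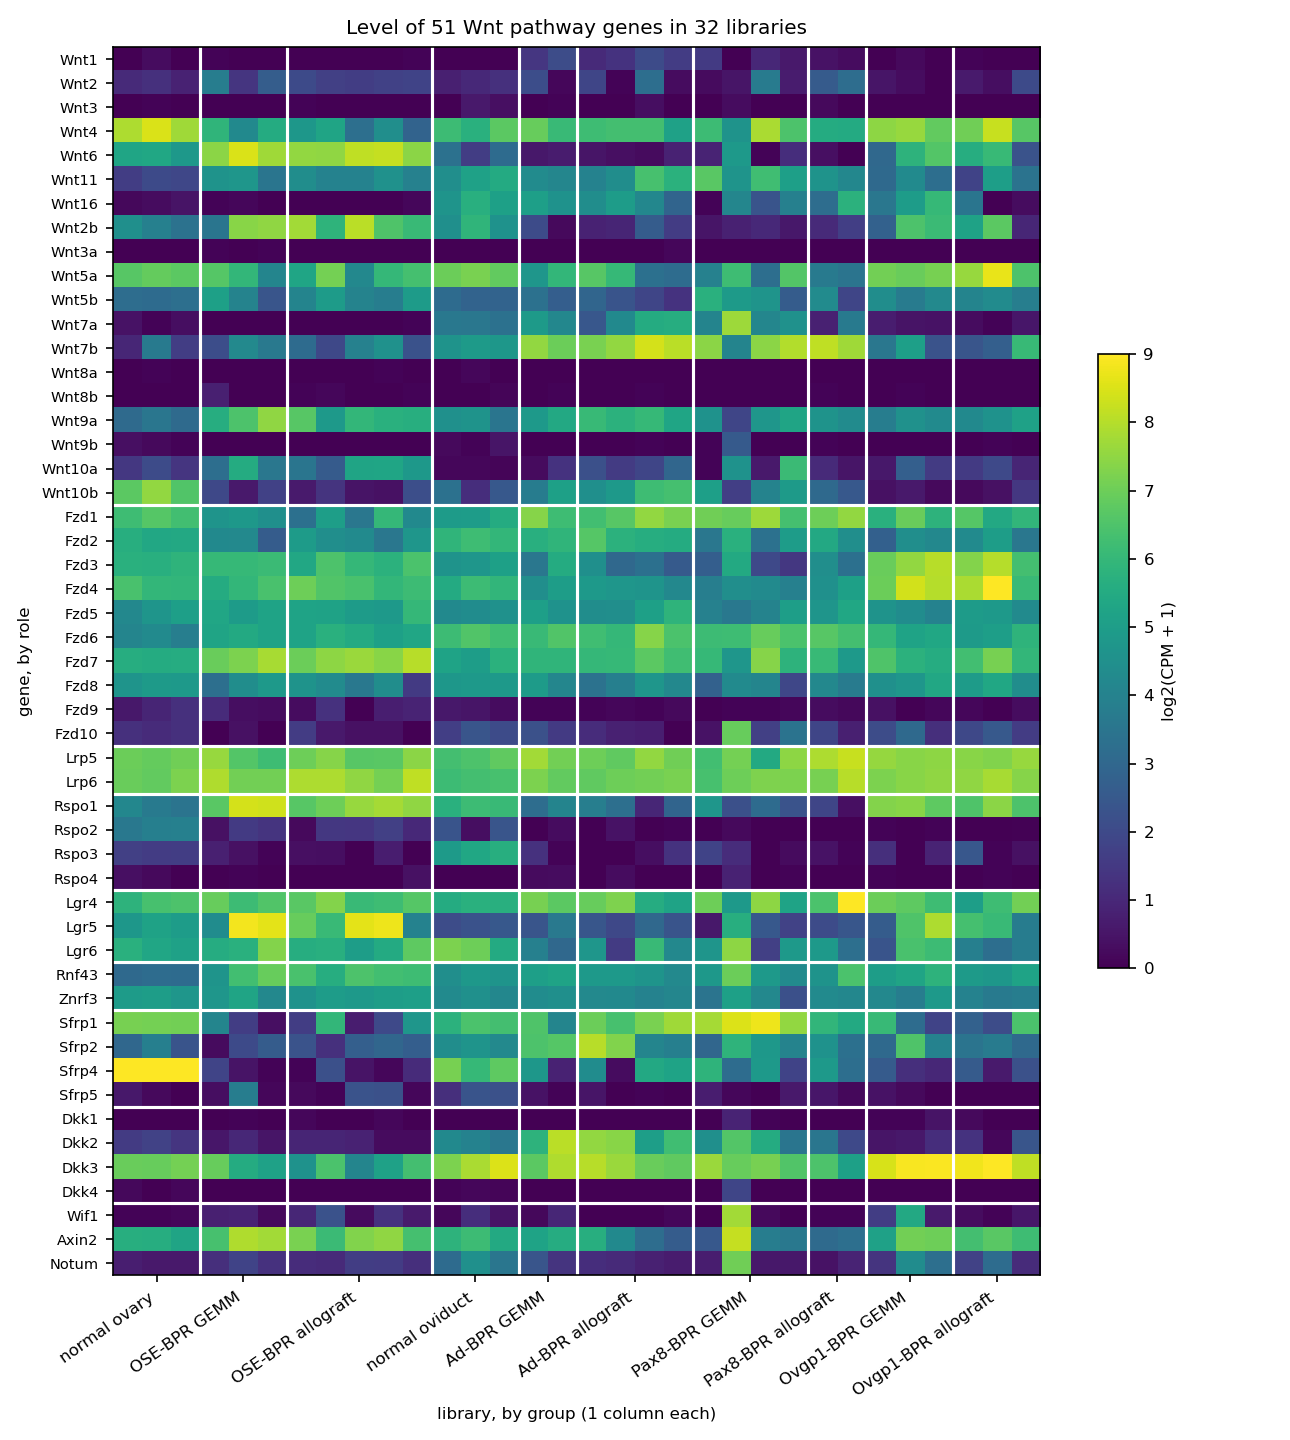
Level of each of the 51 genes (rows, by role) in each of the 32 libraries (columns, by group), as log2(CPM + 1) on a colour scale that is capped at 9. Rspo1, Wnt6 and Wnt2b are bright in OSE-BPR and most Ovgp1-BPR tumours, Wnt7a, Wnt7b and Dkk2 in Ad-BPR and Pax8-BPR tumours, and the second Pax8-BPR GEMM column stands apart in Axin2, Notum and Wif1.

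The results turn on a small set of these genes, and the upstream sequences of 4 are shown because they follow different patterns across the models: Rspo1 and Wnt6 (high in OSE-BPR and Ovgp1-BPR tumours), Wnt16 (near 0 in OSE-BPR tumours) and Axin2 (the feedback gene that set 1 Pax8-BPR tumour apart). Each is the stretch of 250 bases that ends just before the gene's first transcript start in RefSeq (GRCm38.p6, + strand in all 4), and none overlaps an annotated exon. They lie at chr4:124986180-124986429 (Rspo1), chr1:74771642-74771891 (Wnt6), chr6:22287977-22288226 (Wnt16) and chr11:108920099-108920348 (Axin2). They are written 5′ to 3′ with every GGGCGG or its reverse complement CCGCCC, the core of the GC box, in capitals.
Rspo1: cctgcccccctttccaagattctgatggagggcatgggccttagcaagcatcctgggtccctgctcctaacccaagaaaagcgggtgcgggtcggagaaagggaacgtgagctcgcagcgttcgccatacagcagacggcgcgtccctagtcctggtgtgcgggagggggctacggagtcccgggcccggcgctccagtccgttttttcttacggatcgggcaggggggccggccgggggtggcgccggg
Wnt6: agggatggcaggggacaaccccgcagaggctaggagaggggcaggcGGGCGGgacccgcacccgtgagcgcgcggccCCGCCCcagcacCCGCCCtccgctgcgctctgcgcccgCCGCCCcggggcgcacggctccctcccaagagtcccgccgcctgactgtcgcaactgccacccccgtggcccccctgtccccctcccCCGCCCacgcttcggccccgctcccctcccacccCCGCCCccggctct
Wnt16: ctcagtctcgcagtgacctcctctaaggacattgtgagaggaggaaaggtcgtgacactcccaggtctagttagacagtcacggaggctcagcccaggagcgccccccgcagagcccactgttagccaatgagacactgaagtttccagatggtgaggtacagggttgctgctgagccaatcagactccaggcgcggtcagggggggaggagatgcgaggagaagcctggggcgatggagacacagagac
Axin2: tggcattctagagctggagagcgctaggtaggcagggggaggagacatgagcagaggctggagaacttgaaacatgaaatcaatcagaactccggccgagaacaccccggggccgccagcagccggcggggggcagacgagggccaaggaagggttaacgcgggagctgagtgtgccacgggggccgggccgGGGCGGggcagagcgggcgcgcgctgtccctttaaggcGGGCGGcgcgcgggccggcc
Wnt6 held 6 such cores in a window of 79.6% G and C, Axin2 held 2 at 69.2%, and Rspo1 (66.8%) and Wnt16 (59.2%) held 0. RefSeq windows were at hand for 32 of the 51 genes (36 windows). Of these, 66.7% held GGGCGG on either strand, against 32.7% of 32851 windows of the same length, and their median G and C content was 66.8% against 52.4%. The TCF/LEF cores CTTTGAT and CTTTGAA, which share all but the last letter and were also searched on both strands, occurred in 2 windows (Wnt11 and Wnt5b, 5.56% against 3.21% of all windows) and in 1 window (Dkk1, 2.78% against 4.46%). TATAAA occurred in 5 windows (13.9% against 12.4%). A match describes letters in this window and is no evidence of binding.

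In TPM, the deposited unit that divides by transcript length and so allows genes to be compared, the tissues and models differed in which of these genes stood highest, with some leaders shared. Normal ovary was led by Sfrp4 at 1456.9 ± 117.1 TPM (SD, n = 3), and its leading ligands were Wnt4 at 107.7 ± 30.4 and Wnt10b at 91.5 ± 35.8 TPM. Normal oviduct was led by Dkk3 at 120.9 ± 53.9, Sfrp4 at 100.6 ± 35.1 and Rspo1 at 76.0 ± 17.2 TPM, and its leading ligands were Wnt5a at 41.0 ± 7.4, Wnt11 at 39.8 ± 14.3 and Wnt16 at 38.7 ± 14.8 TPM, which lay within each other's spread. OSE-BPR GEMM tumours were led by the agonist Rspo1 at 379.6 ± 198.3 TPM (SD, n = 3) and the ligand Wnt6 at 294.2 ± 115.8, and their allografts by the same pair at 245.6 ± 75.5 and 255.2 ± 73.3 TPM (n = 5). In Ad-BPR and Pax8-BPR tumours the leading ligand was Wnt7b: it stood at 86.1 ± 27.1 (n = 2) and 77.2 ± 52.7 TPM (n = 4) in GEMM tumours, and 127.0 ± 48.9 (n = 4) and 124.8 ± 27.5 TPM (n = 2) in allografts. Ovgp1-BPR GEMM tumours were led by Dkk3 at 260.8 ± 51.8 and Rspo1 at 218.8 ± 43.4 TPM (n = 3), followed among ligands by Wnt4 at 75.0 ± 18.1, Wnt6 at 61.8 ± 53.0 and Wnt5a at 58.5 ± 5.29 TPM.

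The normal tissues were compared first, to show what each site expresses before any tumour. Oviduct and ovary differed in 32 of the 40 Wnt genes tested, 19 higher and 13 lower in oviduct, where 53% of all genes tested passed the same threshold (28.5% higher and 24.5% lower). The median log2 fold change was 0.21 over the 40 genes and 0.02 over all genes. Among ligands, 7 of 13 were higher and 4 lower in oviduct. Wnt16, a ligand of both canonical and other Wnt branches, measured 24.3, 49.9 and 33.4 CPM in the 3 oviducts and 0.139, 0.229 and 0.383 CPM in the 3 ovaries, a log2 fold change of 7.16 ± 0.41 (adjusted p = 2.2e-05). Wnt7a measured 11.2, 10.8 and 9.19 CPM in oviduct and 0.347, 0.0572 and 0.274 in ovary (5.60 ± 0.40, adjusted p = 5.2e-05). Both ligands were thus well measured in every oviduct and under 1 CPM in every ovary, and Wnt11 (3.74 ± 0.32) and Wnt7b (2.44 ± 0.75) were also higher in oviduct. Wnt5a was higher by a small step (0.33 ± 0.10, adjusted p = 0.029), a call lost with limma on log2(TPM + 1) (adjusted p = 0.13) and without any single library other than oviduct 3 (0.051 to 0.12). In the other direction, Wnt10b measured 104.2, 187.4 and 92.4 CPM in ovary against 9.13, 1.25 and 4.52 in oviduct (-4.62 ± 0.63, adjusted p = 0.00095). Wnt6 measured 38.1, 40.0 and 26.7 CPM in ovary against 9.37, 2.13 and 7.89 in oviduct (-2.35 ± 0.48). Wnt10a (-4.18 ± 0.47) and Wnt4 (-1.73 ± 0.31) were lower in oviduct as well.

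The agonists and antagonists also split between the normal tissues. Rspo3 (28.6, 39.7 and 49.0 CPM in oviduct, 2.29, 2.00 and 2.14 in ovary; 4.27 ± 0.23) and Rspo1 (51.0, 71.4 and 68.4 against 16.8, 11.8 and 10.1; 2.39 ± 0.21) were higher in oviduct, and Rspo2 was lower (-2.10 ± 0.70, adjusted p = 0.039). Their receptor Lgr5 was lower in oviduct (3.24, 3.79 and 4.52 CPM against 26.4, 35.7 and 30.5; -2.91 ± 0.18), with no overlap between the tissues. Sfrp4 was at 1361.8, 1643.1 and 1470.6 CPM in ovary and at 141.6, 65.0 and 108.7 in oviduct (-3.74 ± 0.30). Notum (4.60 ± 0.47), Sfrp5 (3.93 ± 0.82) and Dkk2 (2.95 ± 0.26) were higher in oviduct, and the Frizzled gene Fzd1 was lower (-1.15 ± 0.19). Axin2, the feedback gene most often used as a readout of canonical signalling, did not pass the test (0.41 ± 0.19, adjusted p = 0.10), although it did with the animal as a block (0.40, adjusted p = 0.028), without oviduct replicate 3 (0.57, adjusted p = 0.031) and without oviduct replicates 1 and 3 together (0.72, adjusted p = 0.018).

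Oviduct replicates 1 and 3 carried more RNA of ovarian cell markers than replicate 2. The summed level of 5 granulosa markers was 547.3, 66.6 and 437.5 CPM in oviducts 1, 2 and 3, and between 2560.6 and 3116.3 CPM in the ovaries. That of 5 theca and luteal markers was 1625.2, 45.0 and 736.3 CPM, and that of 5 oocyte markers was 106.5, 4.05 and 88.0 CPM. No defining marker was at 0 in the oviducts as a group. The ovarian-high genes Wnt10b, Wnt6, Sfrp4 and Rspo2 (the last at 4.02, 0.26 and 4.23 CPM) were likewise lowest in oviduct 2. This did not hold for every ovarian-high gene, since Lgr5 and Fzd1 were lowest in oviduct 1. With oviduct 2 alone, and its spread assumed to be that of the other groups, 32 genes changed out of 42 tested, where 46.2% of all genes did. Rspo2 was then at -5.54 and Wnt6 at -3.97. The Wnt7b call was lost without ovary 3 (2.04, adjusted p = 0.088), oviduct 1 (2.50, 0.054) or oviduct 3 (2.44, 0.065), and without ovary 2 its value was 4.10. The Rspo2 call was lost with the animal as a block (-2.42, adjusted p = 0.053) and without ovary 1, 2 or 3 or oviduct 1 or 3 (adjusted p = 0.07, 0.094, 0.096, 0.055 and 0.054).

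OSE-BPR GEMM tumours were then set against normal ovary, the organ in which they start, although normal ovary is mostly stroma, follicles and luteal tissue with a thin surface epithelium. Of 43 genes, 13 changed, 6 higher and 7 lower, a share of 30.2% against 23.2% of all genes tested (11.6% in each direction). The median log2 fold change was 0.30 over the 43 genes and 0 over all genes. Rspo1 measured 102.3, 344.0 and 328.8 CPM in the tumours and 16.8, 11.8 and 10.1 CPM in ovary, a rise of 4.32 ± 0.79 (adjusted p = 0.00038) with no overlap. Among ligands, Wnt9a rose from 7.56, 10.5 and 7.67 to 47.9, 88.2 and 182.6 CPM (3.63 ± 0.63, adjusted p = 0.00023) and Wnt11 rose by 2.91 ± 0.71. Rnf43, the ligase that R-spondins oppose, rose by 3.23 ± 0.59 (24.1, 77.4 and 117.9 CPM against 7.35, 8.06 and 7.94), and the receptors Fzd7 (1.82 ± 0.47) and Fzd6 (1.28 ± 0.31) rose too. Sfrp4 was at 2.61, 0.384 and 0.061 CPM in the tumours against at least 1361.8 CPM in every ovary (-10.54 ± 1.86, adjusted p = 0.00029), and Wnt10b at 2.88, 0.549 and 2.32 CPM (-6.06 ± 1.09, adjusted p = 0.00036). Sfrp1 (-4.48 ± 1.48), Rspo2 (-3.35 ± 1.13), Wnt4 (-2.72 ± 0.67), Fzd1 (-1.77 ± 0.54) and Fzd2 (-1.69 ± 0.58) fell as well.

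Lgr5 and Axin2 had large values in this comparison without passing the test. Lgr5 measured 19.6, 459.9 and 398.6 CPM in the tumours against 26.4, 35.7 and 30.5 in ovary (3.25 ± 1.32, adjusted p = 0.076), so that replicate 1 lay below every ovary and the other tumours far above. Without that tumour the value was 3.81 (adjusted p = 0.038), and DESeq2 also called it (adjusted p = 0.02). Axin2 measured 83.0, 240.5 and 212.5 CPM against 49.4, 47.9 and 37.2 (1.99 ± 0.98, adjusted p = 0.14), above every ovary in each tumour, and passed in a fit of these groups alone (2.03, adjusted p = 0.012). Wnt7a had 0 counts in the tumours and at most 0.347 CPM in ovary, and was called by DESeq2 (adjusted p = 0.032) but not by edgeR (0.11). Ovarian cell types moved with the genes that fell: the summed granulosa markers lay between 63.2 and 263.1 CPM in the tumours, with 2 of 5 markers at 1 CPM or more in every tumour, and the theca and luteal markers between 28.1 and 57.7 CPM with Lhcgr at 0, against 11793.2 to 14525.8 CPM in ovary. The fibroblast markers summed to 234.5 to 1109.6 CPM against 3142.0 to 3225.1 in ovary (3 of 6 called lower) and the smooth muscle markers to 76.5 to 218.9 against 1801.9 to 2245.6 (4 of 5 lower). Other cell types moved with the genes that rose: epithelial markers summed to 1809.6 to 2325.2 CPM in the tumours against 69.0 to 114.0 in ovary (5 of 5 called higher), and those of mesothelium and ovarian surface epithelium to 1375.7 to 2214.2 against 167.5 to 221.6 (3 of 5 higher). All 5 markers of each of these lists were at 1 CPM or more in every library of both groups. The part of these cell types in the values of Rspo1, Wnt9a and Rnf43, or of Sfrp4, Wnt10b, Wnt4 and Rspo2, was not tested. In bulk tissue, fewer cells of a type and less RNA per cell cannot be told apart. The Sfrp1 call was lost with any ovary, OSE-BPR GEMM 2 or OSE-BPR GEMM 3 left out (adjusted p = 0.054 to 0.11), and without OSE-BPR GEMM 1 it passed at -6.78 (adjusted p = 0.013). The Rspo2 call was lost without any single library (0.058 to 0.10), Fzd2 was lost without any library other than OSE-BPR GEMM 1 (0.062 to 0.16), and Fzd1 without OSE-BPR GEMM 2 or 3 or ovary 2 (0.053, 0.073 and 0.069).

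Oviduct-origin GEMM tumours (Ad-BPR, Pax8-BPR and Ovgp1-BPR) were set against normal oviduct. Here 10 of 43 genes changed, 4 higher and 6 lower, below the 35.7% of all genes tested (14.8% higher and 20.9% lower). The median log2 fold change was 0.07 over the 43 genes and -0.04 over all genes. Rspo3, at 28.6, 39.7 and 49.0 CPM in oviduct, lay between 0 and 2.54 CPM in the 9 tumours, a log2 fold change of -5.59 ± 1.21 (adjusted p = 0.00085). Rspo2 (-5.45 ± 0.92), Sfrp5 (-3.71 ± 1.24), Sfrp4 (-3.52 ± 0.95), Wnt2b (-3.11 ± 0.85) and Fzd2 (-1.24 ± 0.44) also fell. Wnt2b did so in the model-weighted value only: it measured 21.1, 57.9 and 23.3 CPM in oviduct, 3.14 CPM or less in the 6 Ad-BPR and Pax8-BPR tumours, and 5.88, 88.6 and 69.1 CPM in the Ovgp1-BPR tumours. Lrp6 rose by 0.87 ± 0.23 and Fzd1 by 1.60 ± 0.48, the latter from 29.5, 30.1 and 45.0 CPM to between 51.4 and 204.7 CPM with no overlap. Wnt10a rose (5.06 ± 1.49), from at most 0.12 CPM to 22.9 and 68.6 CPM in Pax8-BPR GEMM 2 and 4, with values down to 0.0707 CPM in the other tumours; this call was lost in a fit of these groups alone (adjusted p = 0.067) and with limma on log2(TPM + 1) (0.18). The Fzd2 call was lost in the fit of these groups alone (0.074) and that of Wnt2b with limma (0.055). Wnt1 had 0 counts in all 3 oviducts and a mean of 1.13 CPM over the models, at least 7.07-fold above the level of 3 counts per library. This bound does not hold for every tumour: Wnt1 was at or under that level in the 3 Ovgp1-BPR tumours and at 0 CPM in Pax8-BPR GEMM 2. Among the genes that did not pass were Axin2 (0.29 ± 0.79), Lgr5 (2.58 ± 1.20, though DESeq2 called it with an adjusted p of 0.02), Rspo1 (-1.29 ± 0.54, adjusted p = 0.063) and Wnt7a (-0.24 ± 0.74).

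With oviduct 2, the one with the least ovarian marker RNA, as the sole normal library, 2 of 48 genes changed, Rspo3 and Wnt2b, and the share of all genes fell to 11.8% as well. The other 8 had adjusted p-values from 0.11 to 0.39. Most of their values moved little: Fzd1 was at 1.80, Lrp6 at 0.83, Wnt10a at 5.07, Sfrp5 at -4.12, Sfrp4 at -2.84 and Fzd2 at -1.45. Rspo2, higher in oviducts 1 and 3 than in oviduct 2, went from -5.45 to -2.05. Leaving out single libraries ended the calls of Wnt1 without Ovgp1-BPR GEMM 2 (adjusted p = 1.0), Fzd1 without oviduct 1 (0.051), Sfrp5 without Ad-BPR GEMM 2 (0.083), oviduct 2 (0.071) or oviduct 3 (0.062), Wnt2b without oviduct 2 (0.056), and Fzd2 without Ad-BPR GEMM 1 or oviduct 1, 2 or 3 (0.073, 0.066, 0.12 and 0.066). Smooth muscle markers of the oviduct wall, all 5 called lower in the tumours, summed to 9430.3 to 11765.8 CPM in oviduct and to 397.7 to 1392.4 CPM in the 9 tumours, and their part in the values of Rspo3 and the Sfrp genes was not tested.

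The question the models were built for, whether tumours started in the ovarian surface differ from those started in the oviduct, was asked once in GEMM tumours (3 against 9) and once in allografts (5 against 9). In GEMM tumours 19 of 43 genes changed, 9 higher and 10 lower in OSE-BPR, against 26% of all genes tested (14.9% higher and 11.1% lower). In allografts 24 of 43 changed, 12 in each direction, against 37.8% (20.4% higher and 17.4% lower). The median log2 fold change was -0.15 over the 43 genes in GEMM tumours (0.02 over all genes) and 0.25 in allografts (0.04 over all genes). The comparisons share no tumour, though they share 1 fit, and allografts may stem from tumours of the other comparison. Of these genes, 17 changed in both, each in the same direction: 89.5% of those called in GEMM tumours and 70.8% of those called in allografts. The same overlap was not computed over all genes, so this agreement cannot be called particular to the Wnt genes. No gene passed the test of a difference between the comparisons, where 0% of all genes did. Of the 43, 2 had an unadjusted p under 0.05 there (Wif1 and Fzd10), a share that was not computed over all genes. DESeq2 and limma also called 0 of the 43, beside 0.0705% and 0% of all genes.

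**Figure D2:**
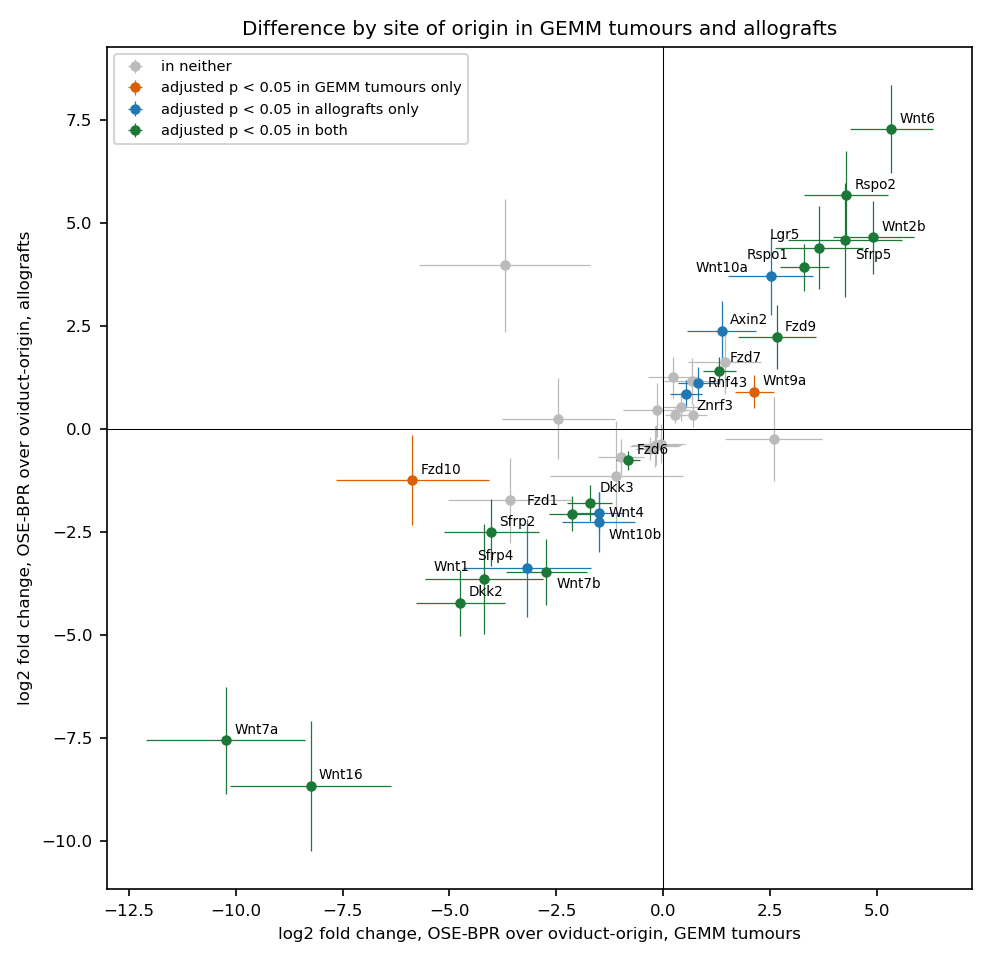
Log2 fold change of OSE-BPR over oviduct-origin tumours for the 43 tested genes in GEMM tumours (horizontal axis) and allografts (vertical axis), with standard errors as bars and colours for the comparisons in which a gene passed an adjusted p of 0.05. The 17 genes called in both lie at the lower left and upper right, from Wnt16 and Wnt7a, whose fitted values rest on 0 to 3 counts in OSE-BPR tumours, to Wnt6 at 5.34 and 7.28.

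Among ligands, Wnt6 and Wnt2b were high in OSE-BPR tumours and Wnt7a, Wnt7b and Wnt16 were low. Wnt6 measured 172.9, 359.9 and 210.1 CPM in OSE-BPR GEMM tumours, and its lowest, median and highest values in the 9 oviduct-origin GEMM tumours were 0.053, 1.24 and 96.1 CPM (5.34 ± 0.97, adjusted p = 0.00054). In allografts it measured 183.6, 179.4, 281.6, 296.7 and 170.1 CPM against 0, 0.419 and 66.5 CPM (7.28 ± 1.06, adjusted p = 3.4e-05). The groups did not overlap in either comparison, and the oviduct-origin tumours above 27.9 CPM were all Ovgp1-BPR. Wnt2b measured 10.2, 166.7 and 181.6 CPM in OSE-BPR GEMM tumours against 0.171, 1.06 and 88.6 CPM (4.92 ± 0.95), and 212.3, 57.2, 269.9, 90.3 and 66.9 CPM in allografts against 0.838, 2.00 and 104.3 CPM (4.65 ± 0.88). Here the groups overlapped through Ovgp1-BPR tumours. Wnt9a was higher in OSE-BPR GEMM tumours (47.9, 88.2 and 182.6 CPM against 2.64, 22.8 and 41.8; 2.14 ± 0.45) and did not pass in allografts (0.91 ± 0.40, adjusted p = 0.081).

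Wnt7a had 0 counts in all 3 OSE-BPR GEMM tumours and 1 count over the 5 OSE-BPR allografts. In the 9 oviduct-origin GEMM tumours its lowest, median and highest values were 0.34, 16.7 and 202.8 CPM. Their mean over the models, 29.2 CPM, was at least 159.5-fold above a floor of 3 counts per library (0.183 CPM) in OSE-BPR GEMM tumours. Without Pax8-BPR GEMM 2 it was at least 75.6-fold above. This bound does not hold for every oviduct model, since the 3 Ovgp1-BPR GEMM tumours each had under 1 CPM of Wnt7a. Wnt16 had 3 counts over the OSE-BPR GEMM tumours and 2 over their allografts, against medians of 16.6 and 10.2 CPM in oviduct-origin GEMM tumours and allografts. Both ligands, which marked normal oviduct, therefore stood at or under the floor in the 8 OSE-BPR tumours, and both passed the test in each comparison (adjusted p = 0.00069 and 0.00023 for Wnt7a, 0.0035 and 0.00031 for Wnt16). Wnt16 was not present in every oviduct-origin tumour: it was at 0.0707 CPM in Pax8-BPR GEMM 1 and at 0 and 0.234 CPM in Ovgp1-BPR allografts 2 and 3. Wnt7b measured 3.42, 17.7 and 11.4 CPM in OSE-BPR GEMM tumours against 3.91, 126.1 and 246.7 CPM (-2.73 ± 0.95, adjusted p = 0.040) and differed by -3.46 ± 0.80 in allografts (adjusted p = 0.0021). Its call in GEMM tumours was lost without OSE-BPR 1, 2 or 3, Ad-BPR 1 or 2, Pax8-BPR 4 or Ovgp1-BPR 2 (adjusted p = 0.051 to 0.13). Wnt10a (3.71 ± 0.95) was higher and Wnt10b (-2.26 ± 0.73) and Wnt4 (-2.03 ± 0.50) were lower in OSE-BPR allografts. The Wnt10b call was lost without OSE-BPR allograft 3 (-2.03, adjusted p = 0.050) or Ovgp1-BPR allograft 3 (-1.78, 0.057). Wnt4 passed in GEMM tumours only without Pax8-BPR GEMM 2 (-1.62, adjusted p = 0.031) or with DESeq2 (0.022).

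Of the 10 Frizzled receptors, 5 changed in GEMM tumours, against 26% of all genes, and 4 in allografts, close to the 37.8% of all genes, and neither Lrp5 nor Lrp6 changed in either. Fzd7 measured 122.2, 147.4 and 225.8 CPM in OSE-BPR GEMM tumours against 25.8, 58.5 and 162.2 CPM in the oviduct-origin ones (1.32 ± 0.38, adjusted p = 0.014), and was higher by 1.42 ± 0.33 in allografts (adjusted p = 0.0023). Fzd1 measured 24.3, 26.7 and 21.4 CPM against 51.4, 118.1 and 204.7 CPM (-2.13 ± 0.53, adjusted p = 0.0062), with no overlap, and differed by -2.05 ± 0.43 in allografts. Fzd6 was also lower, by a smaller step (-0.82 ± 0.28 and -0.76 ± 0.23). The Fzd7 call in GEMM tumours was lost without OSE-BPR GEMM 3 (1.03, adjusted p = 0.12). Fzd10 (-5.87 ± 1.79, adjusted p = 0.020) was at most 0.329 CPM in each OSE-BPR GEMM tumour and had a median of 3.28 CPM in the others. Its call was lost without OSE-BPR GEMM 1 (-5.35, adjusted p = 0.064) or 3 (-5.32, 0.093), or with limma on log2(TPM + 1) (0.076), and without OSE-BPR GEMM 2 it was at -9.93. In the 8 OSE-BPR tumours Lrp6 reached 133.8 to 278.8 CPM, and 82.8 to 259.7 CPM in the 12 Ad-BPR and Pax8-BPR tumours, so the co-receptor was well measured throughout.

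The R-spondin genes Rspo1 and Rspo2 and their receptor gene Lgr5 were higher in OSE-BPR tumours, whereas Rspo3, the only other R-spondin tested, did not pass (-1.09 ± 1.56 in GEMM tumours and -1.15 ± 1.34 in allografts). Rspo1 measured 102.3, 344.0 and 328.8 CPM in OSE-BPR GEMM tumours and 3.58, 15.7 and 168.3 CPM (lowest, median, highest) in the oviduct-origin ones, a difference of 3.31 ± 0.57 (adjusted p = 0.00037). In allografts it measured 100.7, 129.7, 196.6, 221.3 and 181.3 CPM against 0.292, 8.69 and 173.0 CPM (3.92 ± 0.56, adjusted p = 2.5e-05). The overlap in both came from Ovgp1-BPR tumours, none of which was under 89.0 CPM, whereas the 12 Ad-BPR and Pax8-BPR tumours did not exceed 25.4 CPM. Lgr5 was higher by 3.66 ± 1.03 in GEMM tumours (adjusted p = 0.013) and 4.40 ± 1.01 in allografts (adjusted p = 0.0020). Its 8 values in OSE-BPR tumours spread widely: 19.6, 459.9 and 398.6 CPM in GEMM tumours and 118.8, 67.0, 390.7, 433.4 and 15.0 CPM in allografts. The Lgr5 call in GEMM tumours was lost without OSE-BPR 2 (3.18, adjusted p = 0.060), OSE-BPR 3 (3.37, 0.052) or Ad-BPR 1 (3.43, 0.061). Rspo2 was higher too (4.29 ± 0.98 and 5.68 ± 1.06), at levels up to 2.25 CPM in OSE-BPR tumours and up to 0.355 CPM in the others. Of the ligases, Rnf43 (1.11 ± 0.40) and Znrf3 (0.86 ± 0.32) were higher in OSE-BPR allografts and did not pass in GEMM tumours.

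Among antagonists, Dkk2 and Sfrp2 were low in OSE-BPR tumours. Dkk2 measured 0.469, 0.988 and 0.427 CPM in OSE-BPR GEMM tumours against 0.424, 21.6 and 265.0 CPM (-4.74 ± 1.03, adjusted p = 0.0024) and lay between 0.186 and 0.918 CPM in the 5 OSE-BPR allografts against 0.103, 10.5 and 186.9 CPM (-4.21 ± 0.80). It reached at least 2.92 CPM in all 12 Ad-BPR and Pax8-BPR tumours and stayed under 1 CPM in all 8 OSE-BPR tumours. Sfrp2 (-4.02 ± 1.11 and -2.50 ± 0.81) and Dkk3 (-1.72 ± 0.53 and -1.79 ± 0.43), a Dickkopf relative not known to bind Lrp5 or Lrp6, were lower in both comparisons, and Sfrp4 was lower in allografts (-3.37 ± 1.20). The Sfrp4 call was lost without OSE-BPR allograft 1, 3, 4 or 5 or Pax8-BPR allograft 1 (adjusted p = 0.069, 0.073, 0.071, 0.057 and 0.067). Sfrp5 was called higher in both (4.26 ± 1.33 and 4.59 ± 1.38) but from few tumours: it measured 0.268, 13.0 and 0.122 CPM in OSE-BPR GEMM tumours, and without the second of these its difference was -0.21. The Sfrp5 call was also lost without Ad-BPR GEMM 1 or 2 (adjusted p = 0.064 and 0.10) or, in allografts, Pax8-BPR allograft 2 (4.32, 0.058), and limma on log2(TPM + 1) called it in neither (0.12 and 0.16). Sfrp1 did not pass in either (-3.58 ± 1.45, adjusted p = 0.073, and -1.73 ± 1.04), though limma called it in both (adjusted p = 0.019 and 0.045) and DESeq2 in GEMM tumours (adjusted p = 0.0049), as did the main test without OSE-BPR GEMM 1 (-5.90, adjusted p = 0.032).

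Axin2, the feedback gene, gave a result that depended on 1 tumour. It measured 83.0, 240.5 and 212.5 CPM in OSE-BPR GEMM tumours, with 36.1 and 46.2 CPM in the Ad-BPR ones. Pax8-BPR GEMM tumours had 4.59, 291.9, 12.9 and 11.1 CPM and Ovgp1-BPR GEMM tumours 34.4, 136.0 and 129.8 CPM. The difference was 1.37 ± 0.80 (adjusted p = 0.21) with all 12 tumours and 2.39 (adjusted p = 0.0016) without Pax8-BPR GEMM 2, the tumour at 291.9 CPM. In allografts Axin2 measured 144.1, 69.9, 157.9, 181.1 and 81.0 CPM in OSE-BPR against 5.16, 18.3 and 102.0 CPM in the 9 others (2.39 ± 0.71, adjusted p = 0.012), a call that was lost without Pax8-BPR allograft 1 (2.29, adjusted p = 0.052).

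Other cell types moved with these differences. The summed level of 6 fibroblast markers was 234.5 to 1109.6 CPM across the 8 tumours of OSE-BPR, 666.6 to 1609.8 in the 6 Ovgp1-BPR tumours and 3739.1 to 18512.6 CPM in the 12 Ad-BPR and Pax8-BPR tumours. In OSE-BPR tumours 5 of the 6 markers were at 1 CPM or more in every tumour. In Ad-BPR and Pax8-BPR tumours all 6 were, and 4 of 6 were called lower in OSE-BPR in each comparison. The same order held for the 4 macrophage markers in OSE-BPR (35.6 to 152.3 CPM) against Ad-BPR and Pax8-BPR tumours (191.3 to 835.6 CPM), all 4 called lower. The 5 markers of mesothelium and ovarian surface epithelium (Msln, Upk3b, Upk1b, Lrrn4 and Wt1) summed to 1375.7 to 2413.8 CPM in OSE-BPR and 1096.6 to 3593.4 in Ovgp1-BPR tumours, with all 5 at 1 CPM or more in each, and to 64.3 to 665.3 CPM in Ad-BPR and Pax8-BPR tumours. No marker of these lists was at 0 throughout a group. The part of these cell types in the levels of Dkk2, the Sfrp genes, Rspo1, Wnt6 or Wnt2b was not tested.

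**Figure D3:**
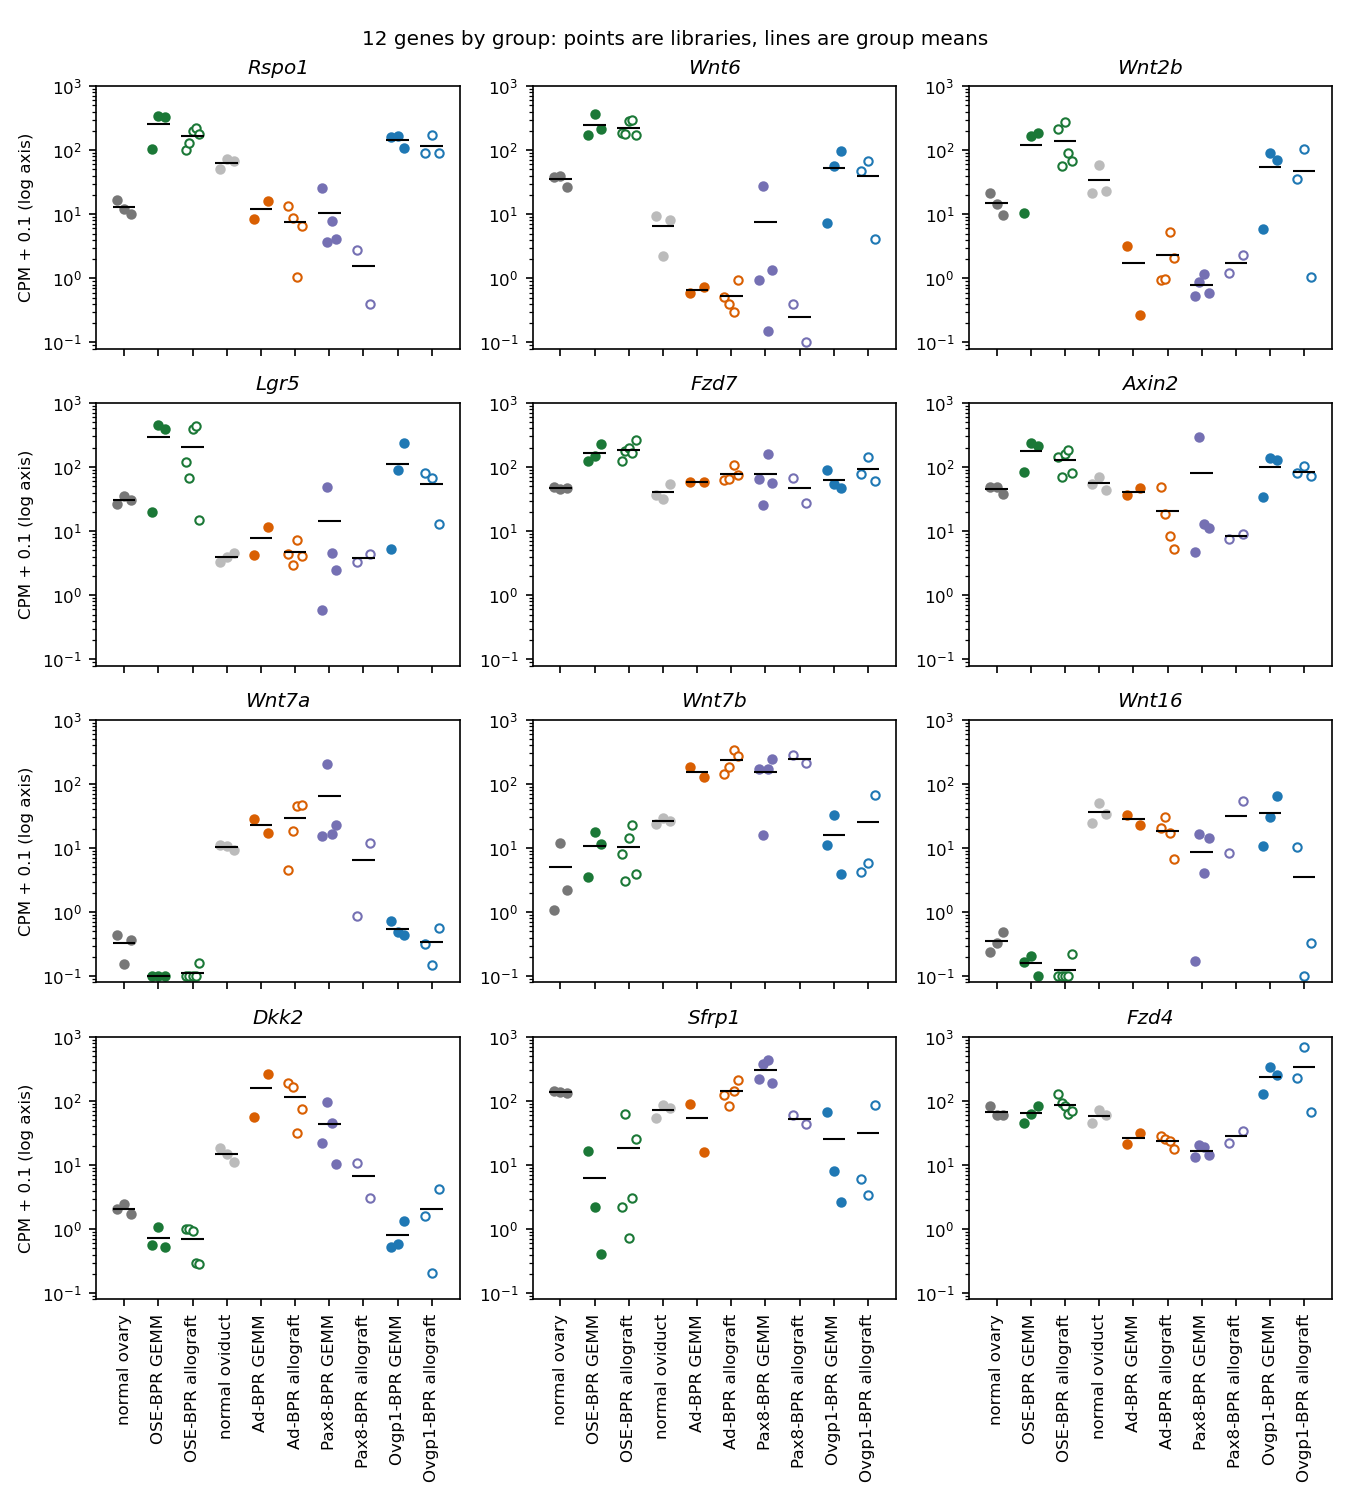
Level of 12 genes in the 10 groups, as CPM + 0.1 on a log axis, with 1 point per library (filled for GEMM tumours and normal tissue, open for allografts) and a line at each group's mean. Rspo1 lies at 89.0 CPM or more in every OSE-BPR and Ovgp1-BPR tumour and at or below 25.4 CPM in every Ad-BPR and Pax8-BPR tumour, Wnt7a shows the opposite order, Dkk2 does so in its group means with an overlap between Pax8-BPR and Ovgp1-BPR allografts, and Fzd4 has its highest group means in Ovgp1-BPR tumours.

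Oviduct-origin models were then compared with each other, since Ovgp1-BPR tumours overlapped with OSE-BPR tumours for several genes. Ovgp1-BPR GEMM tumours differed from Ad-BPR and Pax8-BPR GEMM tumours in 13 of 43 genes, 7 higher and 6 lower, against 22.7% of all genes tested (12.5% higher and 10.2% lower), with medians of -0.07 over the 43 genes and -0.01 over all genes. These 3 tumours also entered the origin comparison above, so the values are not independent of it. Rspo1 measured 159.1, 168.3 and 108.0 CPM against 3.58, 8.02 and 25.4 (lowest, median, highest of 6; 3.72 ± 0.69, adjusted p = 0.0011). Wnt2b measured 5.88, 88.6 and 69.1 CPM against 0.171, 0.628 and 3.14 (5.68 ± 1.18, adjusted p = 0.0026). Neither gene overlapped between the groups, whereas Wnt6 (7.15, 55.9 and 96.1 CPM against 0.053, 0.737 and 27.9; 4.67 ± 1.14) overlapped through Pax8-BPR GEMM 2, and its call was lost in a fit of these groups alone (adjusted p = 0.07).

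Of the 10 Frizzled genes, 3 differed between Ovgp1-BPR and the Ad-BPR and Pax8-BPR GEMM tumours, a share near the 22.7% of all genes. Fzd4 and Fzd3 were higher and Fzd6 was lower. Fzd4, a receptor for several Wnt ligands and for norrin, measured 126.3, 335.4 and 252.9 CPM in Ovgp1-BPR GEMM tumours against 13.3, 19.6 and 31.6 CPM (3.51 ± 0.47, adjusted p = 7.1e-05). Fzd3, known for planar polarity and axon guidance, measured 122.4, 186.0 and 261.2 CPM against 1.77, 8.10 and 45.1 (3.30 ± 0.74, adjusted p = 0.0041, and 0.052 in a fit of these groups alone). In the Ovgp1-BPR allografts, which were not in this test, Fzd4 was at 229.8, 698.5 and 67.3 CPM and Fzd3 at 160.6, 252.1 and 78.4 CPM, each above all 6 Ad-BPR and Pax8-BPR allografts (at most 33.8 and 21.2 CPM). Both overlapped with the 8 OSE-BPR tumours, which had 45.0 to 128.2 CPM of Fzd4 and 41.2 to 88.2 CPM of Fzd3. Dkk3 rose by 1.52 ± 0.50 (347.6, 484.2 and 495.8 CPM against 92.2, 130.3 and 240.1).

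The antagonist Dkk2 and the ligands Wnt7a and Wnt10b were lower in Ovgp1-BPR than in Ad-BPR and Pax8-BPR GEMM tumours. Dkk2 measured 0.424, 0.491 and 1.25 CPM against 10.4, 50.3 and 265.0 (-6.85 ± 1.14, adjusted p = 0.00047). Wnt7a was at 0.636, 0.382 and 0.34 CPM against 15.6, 19.8 and 202.8 (-6.38 ± 1.25, adjusted p = 0.0020), and Wnt10b at 0.318, 0.546 and 0.17 against 2.20, 22.0 and 34.0 (-5.93 ± 1.14, adjusted p = 0.0015). None of these 3 overlapped between the groups. Wnt16 did not follow them: it measured 10.8, 30.8 and 64.9 CPM in Ovgp1-BPR GEMM tumours. Wnt7b (-3.26 ± 1.01) and Fzd6 (-0.85 ± 0.30) were lower too, and Wnt1 was at 0, 0.164 and 0 CPM against a highest value of 3.24 CPM. In a fit of these groups alone the calls of Wnt1 and Fzd6 were lost (adjusted p = 0.075 and 0.058), and that of Fzd6 also with no filter (0.062) and with limma on log2(TPM + 1) (0.096).

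Within Ovgp1-BPR, 2 tumours, singled out after their values were seen, stood apart: GEMM 1 and allograft 3. Lgr5 measured 5.08 and 12.6 CPM in them against 67.7 to 236.8 CPM in the other 4, and Wnt6 measured 7.15 and 3.97 CPM against 47.5 to 96.1 CPM. Wnt2b measured 5.88 and 0.935 CPM against 35.5 to 104.3 CPM, while Rspo1 was at 159.1 and 89.0 CPM in them. The Lgr5 call (3.39 ± 1.20, adjusted p = 0.047) ended without Ad-BPR 1 (3.09, 0.17) or 2 (3.84, 0.12), Pax8-BPR 1 (0.053), 3 (0.064) or 4 (0.06), or Ovgp1-BPR 2 (0.083) or 3 (2.17, 0.27), as it did in a fit of these groups alone (0.12), with no filter (0.057) and with limma (0.076), and was 5.20 (adjusted p = 0.0024) without Pax8-BPR GEMM 2 and Ovgp1-BPR GEMM 1 together. The Axin2 difference was 0.80 ± 0.89 (adjusted p = 0.54) and 2.33 (adjusted p = 0.0070) without Pax8-BPR GEMM 2. Leaving out single libraries also ended the calls of Wnt6 (Ad-BPR 1 or 2, adjusted p = 0.052 and 0.050), Dkk3 (Ad-BPR 1, Pax8-BPR 4, Ovgp1-BPR 2 or 3, 0.15, 0.05, 0.098 and 0.12), Wnt7b (Ad-BPR 1, Ovgp1-BPR 1 or 3, 0.055, 0.07 and 0.12), Wnt1 (Ovgp1-BPR 3, 0.075) and Fzd6 (Ad-BPR 1 or 2, Pax8-BPR 3 or 4, Ovgp1-BPR 2 or 3, 0.051 to 0.18).

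Pax8-BPR and Ad-BPR tumours (GEMM and allograft together, 6 against 6) did not differ in any of the 43 genes by edgeR's quasi-likelihood test, and 0.065% of all genes did (0.045% higher and 0.02% lower). Of the 43, 9 had an unadjusted p under 0.05, a share that was not computed over all genes. DESeq2 called 1 of them, where it called 2.43% of all genes, and limma on log2(TPM + 1) called 2, where it called 0.325%. The medians were -0.12 over the 43 genes and 0.02 over all genes. Nor did allografts differ from GEMM tumours over the 4 models in any of the 43 genes, nor in any of all genes tested (0%). There, 5 genes had an unadjusted p under 0.05, each lower in allografts (Wif1 at -4.52, Notum at -2.22, Wnt6 at -1.61, Axin2 at -1.26 and Rspo1 at -1.10). That share was not computed over all genes. A single GEMM tumour, Pax8-BPR GEMM 2, held the highest value of all tumours for Wif1 (212.9 CPM), Notum (129.9) and Axin2 (291.9). DESeq2 and limma called 0 of the 43, beside 0.171% and 0% of all genes.

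Pax8-BPR GEMM replicate 2 stood apart from the other 3 Pax8-BPR GEMM tumours in many of these genes, and was singled out after its values were seen. Notum was at 129.9 CPM in it and at no more than 0.636 CPM in the others, Wif1 at 212.9 against at most 0.159 CPM, and Axin2 at 291.9 against at most 12.9 CPM. The receptors Fzd10 (119.6 against at most 9.78 CPM), Fzd3 (42.8 against 5.44), Lgr5 (49.1 against 4.51) and Lgr6 (175.0 against 27.2) were high in it, as were the ligands Wnt7a (202.8 against 22.7) and Wnt6 (27.9 against 1.24). In all, 18 of the 43 genes were above all 3 other tumours, 9 of them at least 5-fold, and 10 were below: shares of 41.9%, 20.9% and 23.3%, where this tumour was above the others for 30.3%, at least 5-fold for 2.95% and below for 26.0% of the 20000 genes tested. The genes below included Wnt7b, the leading ligand of the other Pax8-BPR tumours, at 15.7 CPM against 170.6 to 246.7 CPM, Wnt9a (2.64 against at least 22.8), Wnt10b (2.20 against at least 15.4) and Fzd7 (25.8 against at least 55.3). It had the highest value among all 26 tumours for 7 of the 43 genes: Fzd10, Lgr6, Wnt7a, Rnf43, Axin2, Notum and Wif1. That share was not computed over all genes, so it cannot be called particular to the Wnt genes.

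**Figure D4:**
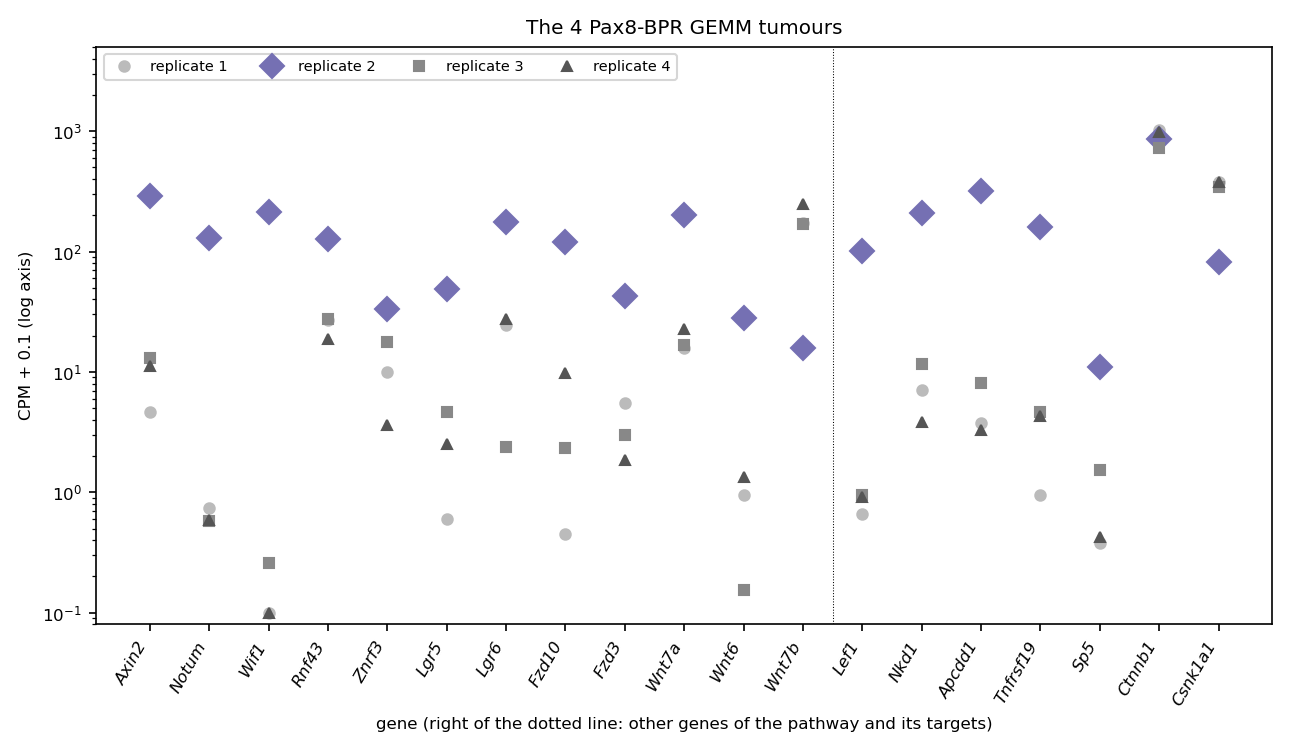
Level of 12 Wnt genes and, to the right of the dotted line, 7 other genes of the pathway in the 4 Pax8-BPR GEMM tumours, as CPM + 0.1 on a log axis. The genes shown were picked after their values were seen. Replicate 2 (diamonds) lies above the other 3 for 11 of the 12 genes on the left and below them for Wnt7b. It lies above them for Lef1, Nkd1, Apcdd1, Tnfrsf19 and Sp5, within them for Ctnnb1 and below them for Csnk1a1. Of all 43 Wnt genes tested, 41.9% lay above and 23.3% below the other 3, beside 30.3% and 26.0% of all genes.

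The same tumour stood apart in other parts of the pathway. Lef1, a transcription factor that partners beta-catenin, was at 101.0 CPM in it and at most 0.848 CPM in the other 3. The feedback genes Nkd1 (208.6 against at most 11.5 CPM), Apcdd1 (316.2 against 7.95), Tnfrsf19 (158.3 against 4.56) and Sp5 (10.9 against 1.43) were high as well. Of the same list, Cd44 (90.1 against at least 607.6 CPM), Ephb2 (37.2 against 141.7) and Sox9 (23.0 against 55.6) lay below the others. Myc, Nkd2 and Ephb3 lay within them. Ctnnb1, which encodes beta-catenin, was at 864.9 CPM, within the 729.9 to 1028.0 CPM of the others. Csnk1a1, a kinase of the complex that marks beta-catenin for destruction, was at 81.7 CPM against 344.3 to 377.7. The pathway genes Axin1 (85.1 against at least 114.4 CPM) and Gsk3b (98.7 against 153.1) were below the others too, while Apc and Gsk3a lay within them. Of 46 further pathway genes tested, 18 (39.1%) were above and 10 (21.7%) below all 3 others, and of 13 feedback and target genes 7 (53.8%) were above and 3 (23.1%) below, beside 30.3% and 26.0% of all genes. Its epithelial markers summed to 1612.5 CPM against 5595.7 to 8133.0 in the others, and the mesothelial and surface epithelium markers to 64.3 against 453.7 to 665.3. Its oviduct secretory markers summed to 517.9 CPM against 86.0 to 271.9, and its fibroblast markers, at 6956.6 CPM, lay within the others. The part of any of these in the Wnt genes was not tested, and the mutations of single tumours were not analysed here.

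Wnt genes lie in neighbouring pairs in the mouse genome, and the members of a pair had different patterns in places. Wnt6 and Wnt10a lie on chromosome 1 on the same strand with 6.2 kb between them, and Wnt10b and Wnt1 on chromosome 15 on opposite strands with 11.7 kb between them. Wnt10a, like Wnt6, was higher in OSE-BPR allografts, but it was also at 68.6 CPM in Pax8-BPR GEMM 4, where Wnt6 was at 1.24 CPM. Wnt1 was at 1.12 to 3.24 CPM in the 6 Ad-BPR tumours, in which Wnt10b was at 12.8 to 80.7 CPM, and at 0.229 CPM or less in the ovaries, where Wnt10b reached 187.4 CPM. The ratio of the neighbours thus differed between normal ovary and Ad-BPR tumours. Of the other neighbours, Wnt3a beside Wnt9a and Wnt3 beside Wnt9b on chromosome 11, only Wnt9a exceeded 4.79 CPM.

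**Figure D5:**
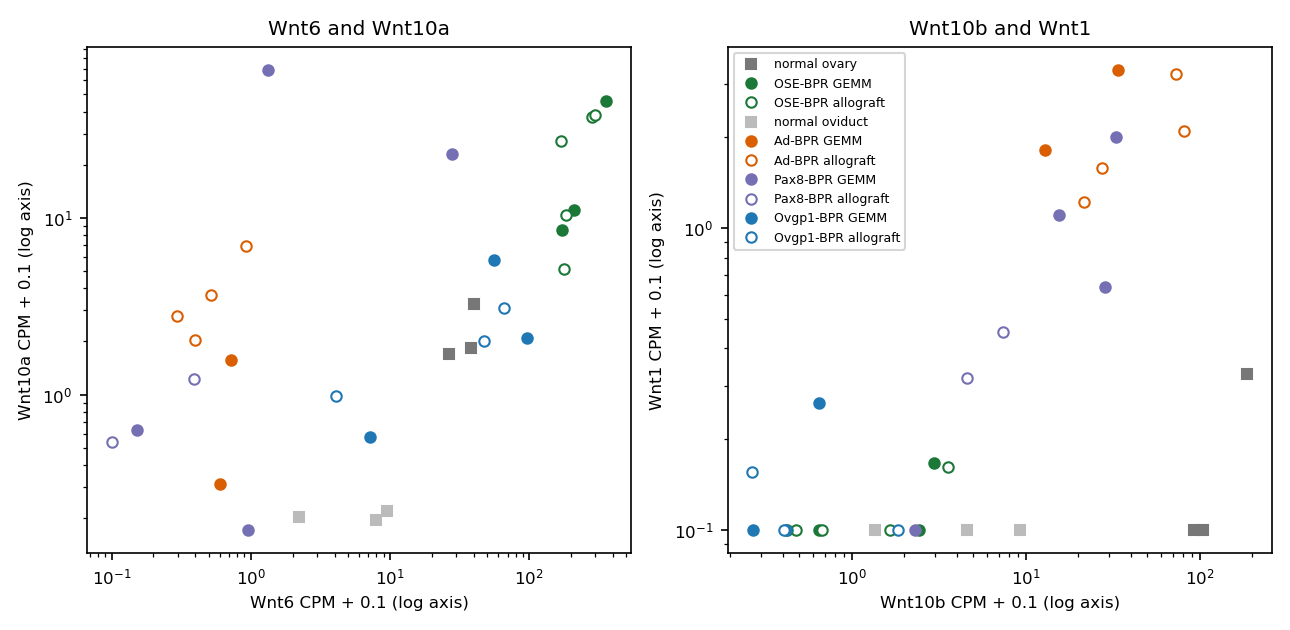
Levels of the neighbouring genes Wnt6 and Wnt10a (left) and Wnt10b and Wnt1 (right) in the 32 libraries, as CPM + 0.1 on log axes, 1 point per library and coloured by group. OSE-BPR tumours have both genes of the first pair high and Pax8-BPR GEMM 4 has Wnt10a without Wnt6, and the ovaries have high Wnt10b with little or no Wnt1.

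The rest of the pathway was described from 2 further lists, one of 48 genes of reception and transduction and one of 14 feedback and target genes. Between OSE-BPR and oviduct-origin tumours, 12 of 46 tested pathway genes changed in GEMM tumours (8 higher, 4 lower in OSE-BPR) and 17 in allografts (9 higher, 8 lower), shares of 26.1% and 37.0% that were close to those of all genes (26% and 37.8%). Celsr2, a planar polarity cadherin, was lower in OSE-BPR (-4.63 ± 0.72 and -4.11 ± 0.55), and Porcn, the enzyme that adds the lipid to Wnt ligands, was lower too (-1.77 ± 0.53 and -2.16 ± 0.44). Wls, the carrier that brings Wnt ligands to the cell surface, was higher (1.68 ± 0.44 and 1.67 ± 0.39), as were Tcf7 (1.77 ± 0.43 and 2.68 ± 0.39), a TCF/LEF factor, and Gpc3 (3.99 ± 0.82 and 6.08 ± 0.88), a cell-surface proteoglycan. The genes for ligand lipidation and ligand export thus moved in opposite directions.

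Of the 13 tested feedback and target genes, 5 changed in GEMM tumours (2 higher, 3 lower in OSE-BPR; 38.5%) and 6 in allografts (2 higher, 4 lower; 46.2%), beside 26% and 37.8% of all genes. Sp5 (2.40 ± 0.79 and 3.85 ± 0.78) and Bambi (1.85 ± 0.60 and 2.54 ± 0.54) were higher, while Cd44 (-3.15 ± 0.52 and -3.31 ± 0.42), Ephb2 (-1.73 ± 0.63 and -2.30 ± 0.52) and Nkd2 (-2.31 ± 0.70 and -1.86 ± 0.55) were lower, so the list did not move one way. The part of Wnt signals in the values of any of these genes, higher or lower, was not tested. In Ovgp1-BPR against Ad-BPR and Pax8-BPR GEMM tumours 10 of 46 pathway genes changed (5 in each direction; 21.7%) and 5 of 13 feedback genes did (2 higher, 3 lower; 38.5%), beside 22.7% of all genes, among them again Sp5 (2.66 ± 0.91) and Bambi (2.54 ± 0.68) higher and Ephb2 (-3.14 ± 0.70) lower. Against normal ovary, OSE-BPR GEMM tumours had 10 of 46 pathway genes changed (7 higher, 3 lower) and 3 of 13 feedback genes, all higher (Sox9 at 4.69 ± 0.71, Sp5 at 4.14 ± 1.09 and Ephb3 at 2.19 ± 0.33), shares of 21.7% and 23.1% that did not exceed the 23.2% of all genes.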

How the data were processed

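Total RNA of 26 tumours and 6 normal tissues was sequenced. Per the submitters' processing notes, cutadapt 1.18, STAR 2.7.0f, RSEM 1.3.1, Picard and bcl2fastq were used with build mm10/GRCm38; their settings and the strand used in counting are not given in the sources used here. The authors deposited RSEM expected counts and TPM (length-normalized transcript levels) for 55450 genes. The expected counts, of which 6.72% were not whole, were rounded and tested with edgeR 4.0.16 (R 4.3.3): TMM scaling, filterByExpr (minimum count 10, minimum total 15), glmQLFit and glmQLFTest, with Benjamini-Hochberg adjustment. Normal tissues were fitted alone (6 libraries, 17334 genes), tumours against tumours over 26 libraries (20000 genes) and tumours against normal tissue over 32 libraries (20887 genes). The models of an arm weighed equally. DESeq2 1.42.0, limma 3.58.1 on log2(TPM + 1), no filter, a fit of only the groups compared and leaving out each replicate were alternatives. The scripts were tested on simulated data. TPM served for levels between genes.

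Totals were 13.99 to 20.51 M counts, so genes under about 1 CPM rest on few counts. The 39 pairs of libraries within groups differed by more than sampling noise (lowest chi-square per degree of freedom 10.9). All tumours, allografts included, carry separate animal numbers in the labels, whereas the GEMM tumour behind each allograft is not given. Allografts may share a source tumour, so their p-values may not measure the spread between source tumours. Ovary and oviduct came from the same 3 animals, and the correlation of their deviations was -0.107, -0.069 and 0.076. Gene members and lists were chosen with earlier results of these data known. Text names up to 8 changed members per direction by size of fold change, if the arm with more reached a mean of 1 CPM, while Axin2, Lgr5, Rspo1, Wnt4, Wnt5a, Wnt7a, Fzd7 and Sfrp1 could be named whatever their value; further members were named after their values were seen.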

Additional observations from a re-analysis of the deposited data

Results flagged for a closer look

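In groups of 4 or 5 tumours, 100 sets of values were screened for 1 library far from the rest. The limits used give about 1 in 20 by chance only for independent, normally distributed values, and these sets share tumours. That rate therefore cannot be set against the 14 sets that held such a library. Of these, 10 were the high values of Pax8-BPR GEMM replicate 2 described above: Axin2 at 291.9 CPM, Wif1 at 212.9, Wnt7a at 202.8, Lgr6 at 175.0, Notum at 129.9, Rnf43 at 126.4, Fzd10 at 119.6, Lgr5 at 49.1, Fzd3 at 42.8 and Wnt6 at 27.9 CPM. OSE-BPR allograft 5 was far above the other 4 OSE-BPR allografts for the receptors Fzd5 (62.7 CPM against at most 36.1) and Lgr6 (107.8 against at most 50.6). Pax8-BPR GEMM replicate 3 was far above the other 3 Pax8-BPR GEMM tumours for Wnt2 (12.4 CPM against at most 0.591, with up to 12.9 CPM in tumours of other groups), and Ad-BPR allograft 4 was low in Wnt4 (34.7 CPM against 73.5 to 78.5).

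Fzd1 moved in opposite directions against the tissue of origin. It fell by 1.77 on the log2 scale in OSE-BPR GEMM tumours against ovary and rose by 1.60 in oviduct-origin GEMM tumours against oviduct, a difference of -3.37 that was not tested. That difference includes the normal tissues' own difference in Fzd1.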

How the results depend on the processing

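Over 2421 alternative values of the 138 results for named genes, 2274 kept their side of the threshold, 124 fell short of it and 22 newly passed it. Among the 2274, a change of direction was not counted where neither value passed. In 1 result that had passed, the direction reversed: Sfrp5 in OSE-BPR against oviduct-origin GEMM tumours, at -0.21 without OSE-BPR GEMM 2 (-0.21 to 4.83 over single libraries left out). In a fit of only the groups compared, 21 genes changed in OSE-BPR GEMM tumours against ovary (13 in the fit of 32 libraries), where 33.3% of all genes did (23.2%), and 8 in Ovgp1-BPR against the other oviduct-origin GEMM tumours (13), where 16.2% of all genes did (22.7%). That fit also ended the calls of Lgr5, Fzd10, Wnt1 and Wnt7b between origins in GEMM tumours (adjusted p = 0.054, 0.058, 0.099 and 0.053). For allografts against GEMM tumours that fit is the one already used and was not run again. Without oviducts 1 and 3, an alternative added after seeing the data, 2 genes changed in oviduct-origin GEMM tumours against oviduct (10), where 11.8% of all genes did (35.7%). Between Pax8-BPR and Ad-BPR, DESeq2 called 1 gene (2.43% of all genes) and limma 2 (0.325%). With each replicate left out in turn, the counts are given with the share of all genes called in parentheses. Oviduct against ovary ran from 24 without ovary 3 (42.9%) to 32 without oviduct 3 (46.7%). OSE-BPR against ovary ran from 9 without OSE-BPR GEMM 2 (16.7%) to 14 without OSE-BPR GEMM 1 (23.7%). Oviduct-origin against oviduct ran from 7 without oviduct 2 (26.1%) to 12 without Pax8-BPR GEMM 2 (38.7%). Origin in GEMM tumours ran from 12 without OSE-BPR GEMM 3 (13.5%) to 23 without Pax8-BPR GEMM 2 (28.5%). Origin in allografts ran from 19 without OSE-BPR allograft 3 (32.1%) to 25 without Ad-BPR allograft 1 (36.3%). Ovgp1-BPR ran from 8 without Ovgp1-BPR 3 (9.86%) to 16 without Pax8-BPR 2 (24.6%). The 3 others stayed at 0 (at most 0.141%). Pairing ovary and oviduct by animal as a replicate block gave 31 calls against 32, where 46.0% of all genes were called against 53%. Apart from Rspo2 and Axin2 it changed no call of a named gene. Depth limits genes under about 1 CPM, and the strand of counting could move genes with an antisense partner.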
